A study of Mus musculus with 6 samples.

Results

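The flow-responsive and valve endothelial regulators described here are 10 genes: the transcription factors Klf2, Klf4, Prox1, Foxc2 and Gata2, the nitric oxide synthase Nos3, the anticoagulant receptor Thbd, the vasoconstrictor Edn1, the mechanically gated channel Piezo1 and the caveola protein Cav1. They were taken by symbol from the 23107 genes of the count table, and all 10 were found. Piezo1 is listed there under its older symbol Fam38a. All 10 passed the minimum of 10 counts in at least 3 of the 6 libraries, with 688 to 63423 counts per library, as did 15354 genes in all.

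Whole aortic valve RNA of outbred mice aged 4 months was sequenced in 3 control libraries, which the labels call WT, and 3 mutant libraries labelled Acvr1:Nfatc1Cre. The mutants carried a Cre-dependent transgene for a constitutively active form of the BMP type I receptor Acvr1 (caAcvr1), together with Cre knocked into the Nfatc1 locus. This Cre recombines in the endocardium and its descendants, including valve endothelium and valve interstitial cells, and at the junction of leaflet and wall, so the transgene is not confined to endothelium. The study's control genotypes lack 1 or both of these alleles, and which of them were sequenced is not given. Sex, batch, and the number of mice in each library are not given either. Only replicate numbers tell the libraries of a group apart, and p-values therefore measure the spread between these libraries, which may be partly technical.

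Blood flow is read by the cells that line vessels and valves. Piezo1 opens under membrane stretch and shear, and caveolae, of which Cav1 is the coat protein, take part in the same sensing. Steady shear drives a kinase route through MEKK and ERK5 to MEF2 factors, which switch on Klf2 and Klf4. These zinc finger factors in turn raise Nos3 and Thbd and lower Edn1, which keeps the surface dilating and non-clotting. Gata2, Foxc2 and Prox1 belong to a program known best from lymphatic and venous valves, where oscillating flow induces it, and parts of it are used in heart valve endothelium. BMP signaling through Acvr1 is also active in endothelium, where its targets overlap with flow-induced genes.

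Promoter sequence (250 bases before to 50 bases after a RefSeq transcription start, GRCm38.p6) was at hand for 7 of the 10 genes, Nos3, Thbd and Foxc2 not among them, in 10 windows. The upstream parts of Klf2 and Edn1 are shown because they stand at opposite ends of the flow response and hold different motifs in the bases printed. Capitals mark matches on either strand to the MEF2 site in Klf2, and to GAGACC (the shear stress response element, read here as GGTCTC) and CACCC (the core of the KLF box, read here as GGGTG) in Edn1. The Klf2 sequence is chr8:72318812-72319032 and the Edn1 sequence is chr13:42301226-42301475, both on the plus strand and both ending at the base before the annotated gene. For Klf2 this leaves off the 29 bases before its RefSeq start, which hold its CACCC match (-19 to -15).
Klf2: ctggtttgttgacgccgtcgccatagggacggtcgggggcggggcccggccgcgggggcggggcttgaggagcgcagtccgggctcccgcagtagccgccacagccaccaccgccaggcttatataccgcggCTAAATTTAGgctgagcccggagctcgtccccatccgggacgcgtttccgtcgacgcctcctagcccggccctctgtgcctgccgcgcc
Edn1: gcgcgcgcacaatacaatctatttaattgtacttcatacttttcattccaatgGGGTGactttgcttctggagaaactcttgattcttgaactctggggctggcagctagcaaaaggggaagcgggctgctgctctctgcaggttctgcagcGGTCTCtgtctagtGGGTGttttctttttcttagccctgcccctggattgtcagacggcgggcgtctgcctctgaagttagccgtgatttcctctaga
A MEF2 site, which occurs in 3.19% of 32851 such windows, was matched in Klf2 from base -118 to base -109 of its RefSeq start. GAGACC occurs in 16.4% of the windows. It was matched in Edn1 from -98 to -93, at 2 places in the first window of Gata2 and at 1 place in Piezo1. CACCC occurs in 57.5% of the windows, so its presence in Klf2, Edn1, Prox1, Gata2, Piezo1 and Cav1 is common. A match is a run of letters and was not tested as a binding site.

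In control valves the 10 regulators spanned a wide range of levels. Levels are given as CPM, that is, counts scaled to a common library total by the TMM method of edgeR, and divided by exon length in kilobases where genes are compared with each other. Cav1 and Klf2 were the most abundant, at 311 CPM per kb (range 227 to 406, n = 3) and 274 CPM per kb (252 to 290), above 98.7% and 98.5% of the genes tested. Their ranges overlapped, so their order is not resolved. Thbd followed at 133 CPM per kb, Nos3 at 91.0 and Gata2 at 43.6, each apart from its neighbours. Klf4 at 29.5, Foxc2 at 27.4, Edn1 at 16.0 and Piezo1 at 13.7 formed a chain of overlapping neighbours. Prox1 was the lowest at 5.83 CPM per kb, yet still above 48.4% of the genes tested.

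In mutant valves Klf2 stood first, at 341 CPM per kb (309 to 386), and its range lay apart from that of Cav1 at 269 CPM per kb (222 to 293). The rest of the order was much the same. Thbd was at 133 CPM per kb, Nos3 at 98.3, Gata2 at 40.8, Klf4 at 35.3, Foxc2 at 19.1, Piezo1 at 12.4, Edn1 at 9.88 and Prox1 at 5.90. Edn1 and Piezo1 exchanged places, but their ranges overlapped in both groups.

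**Figure D1:**
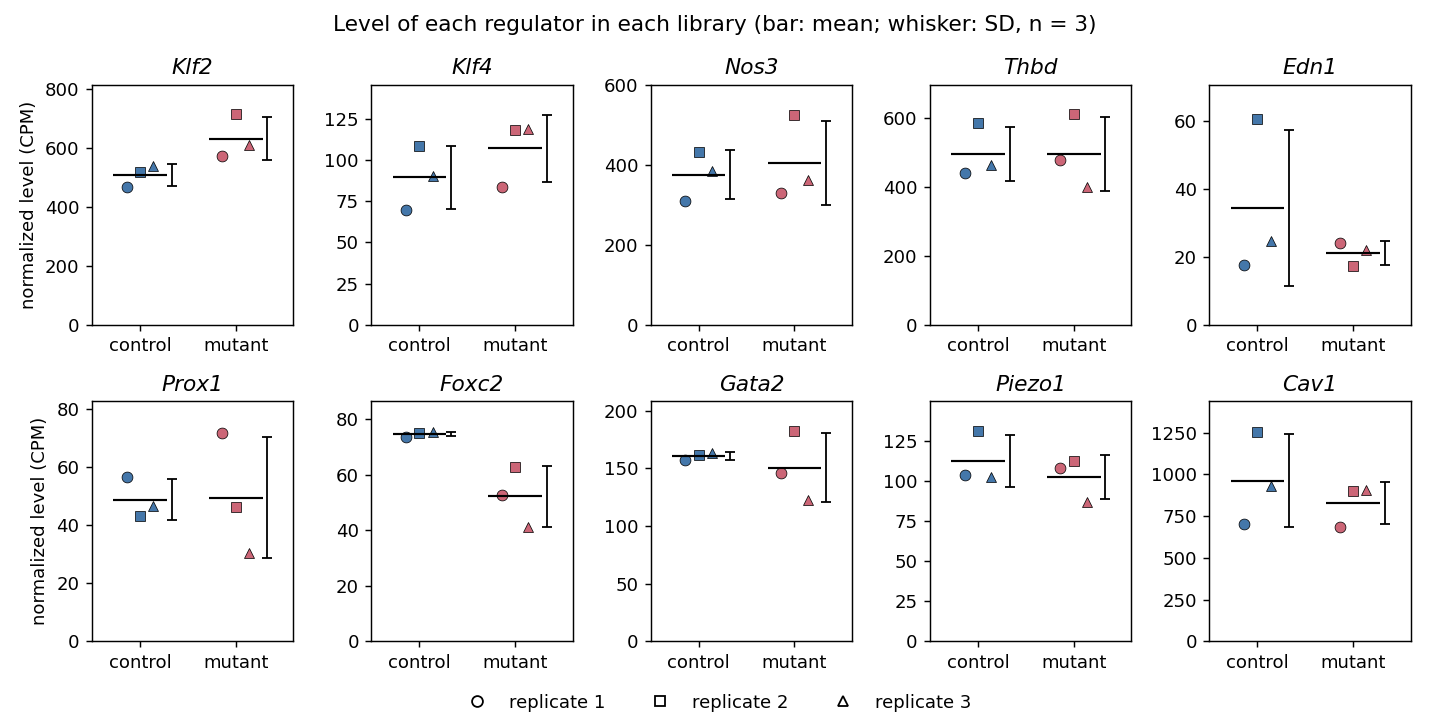
Normalized level (CPM, linear axes from 0) of each of the 10 regulators in each of the 3 control and 3 mutant libraries. Points are libraries, bars are group means and whiskers are SD (n = 3). Klf2 lies above all controls in each mutant, Foxc2 below all controls, and the groups overlap for the other 8 genes.

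Mutants were compared with controls by the edgeR quasi-likelihood F test, which is two-sided, in 1 fit over all 15354 genes with Benjamini-Hochberg adjustment. None of the 10 regulators had an adjusted p under 0.05, and neither had any gene in the table (percent called 0). The adjusted p of every one of the 10 was 0.999 or above. At an unadjusted p under 0.05, 1 of the 10 was called (Foxc2, lower in the mutants), beside 3.45% of all genes tested. Split by direction, the share of all genes was 1.86% on the lower side and 1.59% on the higher. DESeq2, run on the same genes, called 26 genes at an adjusted p under 0.05 (0.169%), none of them among the 10, and 2 of the 10 at an unadjusted p under 0.05 (Klf2 and Foxc2), beside 4.45% of all genes tested. Of the 10 genes, 5 had a higher fitted level in the mutants and 5 a lower one, and their median log2 fold change was -0.05 against 0.01 for all genes tested. Groups that did not overlap were found in 2 of the 10, beside 8.87% of all genes tested.

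Among the flow-induced factors, Klf2 (chr8:72319033-72321656, plus strand, 3 exon blocks) is the main transcriptional switch of the laminar flow state and also shapes valve endothelium. The controls measured 465, 516 and 536 CPM and the mutants 571, 713 and 608 CPM, in the order of replicates 1, 2 and 3 used throughout. Every mutant library lay above every control library, mutant replicate 1 only just. The group means were 506 ± 36.7 and 630 ± 73.6 CPM (SD, n = 3 each), 24.6% higher in the mutants. The log2 fold change was 0.32 (SE 0.15, unadjusted p = 0.0733, adjusted p = 0.999 in edgeR). In DESeq2 the unadjusted p was 0.0265 and the adjusted p 0.943. The exact permutation test on log2 CPM gave a two-sided p of 0.1, the smallest that 3 libraries against 3 allow, and 4.04% of all genes tested had every mutant above every control. With any 1 library left out the log2 fold change stayed between 0.22 and 0.38.

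Klf4 (chr4:55527143-55532466, minus strand), the second of the flow-induced KLF factors, is also an immediate early gene and is expressed in other cell types of the vessel wall. It was at 69.8, 108 and 90.5 CPM in the controls and at 83.7, 118 and 119 CPM in the mutants. The groups overlapped, since control replicate 2 lay above mutant replicate 1, and the log2 fold change was 0.26 (SE 0.20). Leaving out control replicate 1 gave 0.11 and leaving out control replicate 2 gave 0.42. The ratio of Klf2 to Klf4 per kb was 10.9, 7.83 and 9.72 in the controls and 11.2, 9.87 and 8.40 in the mutants, and also overlapped.

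Of the effectors that shear raises, Nos3 (chr5:24364810-24384474, plus strand, 26 exon blocks) makes the nitric oxide that relaxes the vessel wall. It was at 311, 433 and 385 CPM in the controls and at 330, 526 and 363 CPM in the mutants. The groups overlapped and mutant replicate 2 was the highest of the 6 libraries. The log2 fold change was 0.11 (SE 0.22), and was -0.12 without mutant replicate 2. Exons of Nos3 share 1040 bases with the antisense gene Gm15587 and 294 bases with Atg9b on the opposite strand. The library kit does not mark strand, so such reads cannot be told apart. The same holds for 990 bases that Piezo1 shares with Ctu2, for 133 that Prox1 shares with Prox1os and for 35 that Edn1 shares with Gm47118.

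Thbd (chr2:148404466-148408188, minus strand, 1 exon) encodes thrombomodulin, which turns thrombin towards activating protein C. It was at 439, 584 and 462 CPM in the controls and at 478, 610 and 398 CPM in the mutants. The mutants reached beyond the controls at both ends, and the means were 495 ± 77.7 and 496 ± 107 CPM (SD, n = 3). The log2 fold change was 0.00 (SE 0.20), with a range of -0.17 to 0.14 when 1 library was left out.

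Edn1 (chr13:42301476-42307990, plus strand) encodes preproendothelin, the constrictor that steady shear lowers. It was at 17.6, 60.6 and 24.8 CPM in the controls and at 24.1, 17.4 and 21.9 CPM in the mutants. Control replicate 2 stood alone, at a level above that of each of the other 5 libraries, and the remaining libraries overlapped. The fitted log2 fold change of -0.70 (SE 0.44, unadjusted p = 0.155) was the largest in size of the 10, and without control replicate 2 it was 0.00. The controls differed among themselves 3.45-fold and the mutants 1.39-fold. Control replicate 2 also had the highest summed smooth muscle markers (14255 CPM, against 2475 to 6486 in the other libraries) and the lowest summed cardiac muscle markers (14070.5 CPM, against 22950.5 to 46954). With a marker score as a covariate, the log2 fold change of Edn1 was -0.31 (cardiac, SE 0.34), -0.17 (endothelial, SE 0.44) and -0.93 (immediate early, SE 0.62). It was 0.01 (smooth muscle, SE 0.55) and 0.0052 (macrophage, SE 0.67). All mutants lay below all controls on the smooth muscle score, so that fit cannot fully tell the score from the group. The part of muscle content in the values of Edn1 was not tested.

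Of the valve and lymphatic factors, Foxc2 (chr8:121116171-121118895, plus strand, 1 exon) is a forkhead factor needed for lymphatic and venous valves. It was at 73.7, 74.9 and 75.3 CPM in the controls and at 52.5, 62.8 and 41.1 CPM in the mutants. Every mutant library lay below every control library. The controls were nearly equal, with a mean of 74.6 ± 0.79 CPM, while the mutants spread over 1.53-fold around 52.2 ± 10.9 CPM (SD, n = 3). The mean was 30.1% lower in the mutants and the log2 fold change was -0.52 (SE 0.16, unadjusted p = 0.0128, adjusted p = 0.999 in edgeR). In DESeq2 the unadjusted p was 0.00676 and the adjusted p 0.521. The exact permutation test gave its smallest two-sided p, 0.1, and 4.83% of all genes tested had every mutant below every control. Without mutant replicate 3, the lowest, the log2 fold change was -0.37, and without mutant replicate 2 it was -0.67.

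Gata2 (chr6:88193891-88207032, plus strand), a zinc finger factor that acts upstream of Foxc2 and Prox1 in lymphatic valves, was at 157, 162 and 163 CPM in the controls and at 146, 183 and 123 CPM in the mutants. The controls spread over 1.04-fold, against 1.02-fold for Foxc2. The mutants lay on both sides of the controls, and the log2 fold change was -0.10 (SE 0.15). Without mutant replicate 3 it was 0.03.

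Because mutant replicate 3 was low and mutant replicate 2 high in both genes, the ratio of Foxc2 to Gata2 per kb was computed after these values were seen. It was 0.634, 0.626 and 0.623 in the controls and 0.486, 0.466 and 0.453 in the mutants. The spread within each group was much narrower than the gap between them. The difference of -0.42 on the log2 scale lay between -0.45 and -0.40 with any 1 library left out. The pair was chosen because its mutant libraries moved together, so the narrow spread among the mutants is part of that choice. The ratio of Klf2 to Foxc2 per kb, also chosen after the values were seen, was 9.30, 10.2 and 10.5 in the controls and 16.0, 16.7 and 21.8 in the mutants. Its groups were apart as well, which follows from Klf2 being higher and Foxc2 lower in every mutant, so it adds no further result. Of the 6 ratios computed, those 2 were the ones whose groups were apart, and the other 4 overlapped. No share over all gene pairs is given beside them. The ratio of Foxc2 to Prox1 per kb was 4.00, 5.31 and 4.97 in the controls and 2.25, 4.16 and 4.17 in the mutants, and that of Nos3 to Edn1 was 9.14, 3.70 and 8.02 in the controls and 7.07, 15.6 and 8.58 in the mutants. Since all of them were chosen after the values were seen, no test is given.

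Prox1 (chr1:190118035-190170714, minus strand), the homeobox factor that sets lymphatic identity and is also made in part of the heart valve endothelium and in cardiac muscle, was at 56.7, 43.4 and 46.6 CPM in the controls and at 71.7, 46.5 and 30.3 CPM in the mutants. The mutants held both the highest and the lowest of the 6 libraries and spread over 2.37-fold. The log2 fold change was 0.02 (SE 0.29), and turned to -0.35 without mutant replicate 1 and to 0.27 without mutant replicate 3.

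Of the membrane genes, Piezo1 (chr8:122481698-122551329, minus strand, 51 exon blocks) was at 104, 131 and 102 CPM in the controls and at 108, 112 and 87.0 CPM in the mutants. The groups overlapped, with a log2 fold change of -0.14 (SE 0.15). Cav1 (chr6:17306335-17341452, plus strand) was at 701, 1254 and 932 CPM in the controls and at 685, 901 and 906 CPM in the mutants. These groups overlapped too, and as for Edn1 control replicate 2 was the highest library. The log2 fold change of Cav1 was -0.21 (SE 0.25) and became 0.03 without that library.

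**Figure D2:**
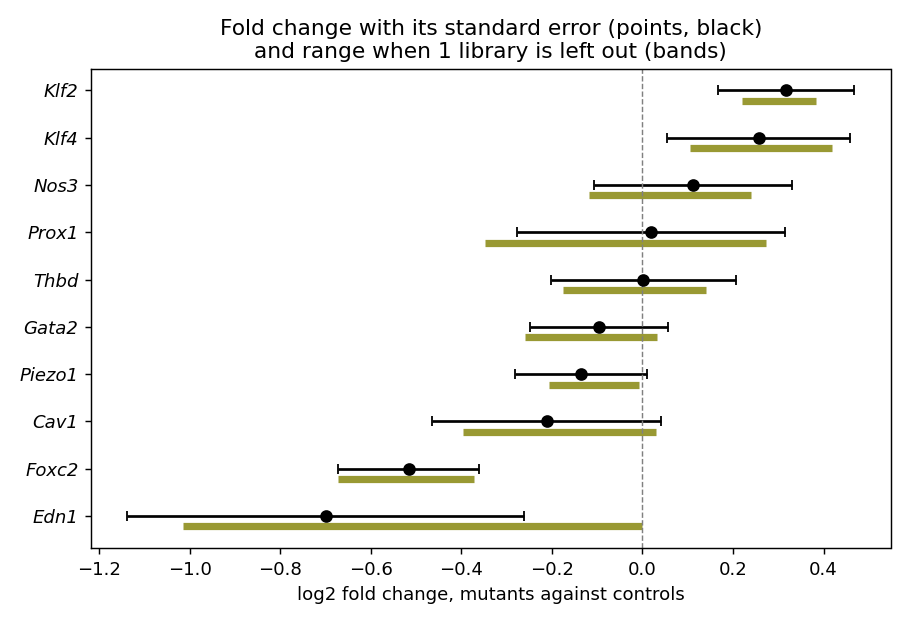
Log2 fold change of each regulator, mutants against controls, from edgeR. Points with whiskers are the estimate and its standard error, and bands below them span the estimates with each of the 6 libraries left out in turn. Klf2 and Klf4 stay above 0, Foxc2 and Piezo1 stay below 0 (Piezo1 as near as -0.0066), and the bands of the other 6 genes reach or cross 0.

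In RNA of a whole valve, fewer cells of a type and less RNA per cell cannot be told apart. The level of each regulator was therefore also set against 20 pan-endothelial markers, none of which is among the 10. Their mean log2 CPM was 7.06, 7.50 and 7.36 in the controls and 7.11, 7.34 and 7.06 in the mutants, so the groups overlapped. All 20 markers were tested, with 9 higher and 11 lower in the mutants and a median log2 fold change of -0.12, against 0.01 for all genes. The split ranged from 4 higher and 16 lower without control replicate 1 (median -0.20) or mutant replicate 2 (median -0.17) to 11 higher and 9 lower without control replicate 2 (median 0.05). The tight junction protein Cldn5 (96.2, 120 and 101 CPM in controls against 52.1, 73.5 and 71.2 in mutants), the guidance receptor Robo4 and the matrix protein Mmrn2 were below every control in every mutant. Their log2 fold changes were -0.69, -0.55 and -0.36. They were 3 of the 20 markers, beside 4.83% of all genes tested. Ramp2, a receptor subunit for adrenomedullin, named after its values were seen, went the other way, at 221, 238 and 261 CPM in the controls and 265, 335 and 288 CPM in the mutants (0.30). It was the 1 marker of the 20 with every mutant higher, beside 4.04% of all genes tested. None of these had an adjusted p under 0.05.

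Relative to this endothelial score, 3 regulators were higher in every mutant than in every control, beside 5.03% of all genes tested on the same scale. The score is a mean RNA level, so these values are not levels per endothelial cell. Its difference between group means, -0.13, raises the mutant values of every gene on this scale. Klf2 was 1.80, 1.51 and 1.71 log2 units above the score in the controls and 2.05, 2.13 and 2.19 above it in the mutants, a difference of 0.45 that stayed between 0.37 and 0.51 with any 1 library left out. Klf4 was at -0.94, -0.74 and -0.86 in the controls and at -0.72, -0.46 and -0.17 in the mutants, a difference of 0.40 that was 0.26 without mutant replicate 3. Nos3 was at 1.22, 1.26 and 1.23 in the controls and at 1.26, 1.69 and 1.44 in the mutants, a difference of 0.23 that was 0.11 without mutant replicate 2. For Nos3 the lowest mutant (1.2558) and the highest control (1.2556) are equal to 3 decimals, so the groups are barely apart.

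On the same scale Foxc2 was lower in every mutant, beside 1.47% of all genes tested. It was at -0.86, -1.27 and -1.12 in the controls and at -1.39, -1.37 and -1.70 in the mutants, a difference of -0.40. The exact permutation test gave 0.1 for each of these 4 genes, the smallest p it can give. The other 6 overlapped, with differences of 0.13 for Thbd, -0.37 for Edn1, 0.07 for Prox1, 0.02 for Gata2, -0.0006 for Piezo1 and -0.05 for Cav1. With 1 library left out these ran from 0.05 to 0.22 for Thbd, -0.63 to 0.04 for Edn1, -0.27 to 0.33 for Prox1, -0.07 to 0.13 for Gata2, -0.09 to 0.07 for Piezo1 and -0.17 to 0.07 for Cav1. With the endothelial score as a covariate in edgeR, the log2 fold change was 0.39 for Klf2 and -0.45 for Foxc2.

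**Figure D3:**
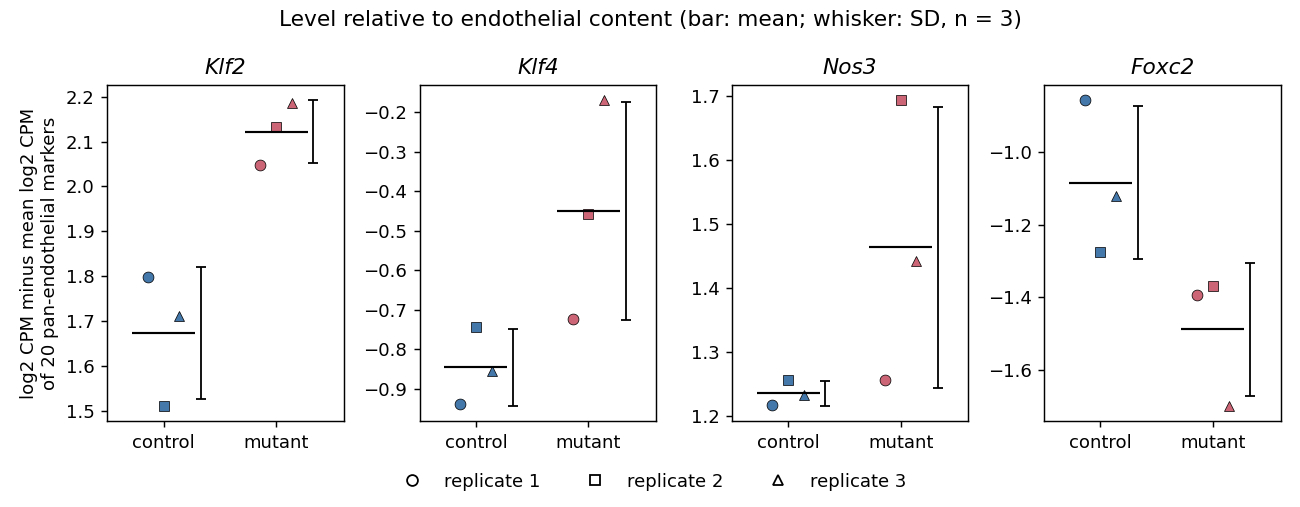
Level of Klf2, Klf4, Nos3 and Foxc2 per library relative to the endothelial score, as log2 CPM minus the mean log2 CPM of 20 pan-endothelial markers (axes do not start at 0). Points are libraries, bars are means and whiskers are SD (n = 3). The mutants lie above all controls for Klf2, Klf4 and, barely, Nos3, and below all controls for Foxc2.

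Marker lists of the other cells that a valve dissection can hold are given here beside these values. All 12 valve interstitial and fibroblast markers were tested, with a mean log2 CPM of 9.01 to 9.32 over the 6 libraries and 6 higher and 6 lower in the mutants. None of these markers was at 0 in all libraries. Since the list includes general fibroblast markers, their presence does not show that the RNA came from valve alone. All 9 smooth muscle markers were lower in the mutants, with a median log2 fold change of -0.87 (-0.48 without control replicate 2 and -0.57 without mutant replicate 1), and their mean log2 CPM was 8.49, 9.55 and 8.55 in the controls and 7.36, 8.30 and 8.44 in the mutants. With that score as a covariate, the log2 fold change of Klf2 was 0.41, that of Klf4 0.64, that of Foxc2 -0.55 and that of Cav1, which smooth muscle also expresses, 0.23. All mutants lay below all controls on the score, so this fit cannot fully tell the score from the group. Of 10 macrophage and leukocyte markers 9 were higher in the mutants (median 0.36), beside 52.2% of all genes tested, and 5 were above every control, beside 4.04%. Their summed level, to which Lyz2 adds most, was 1271 to 1431 CPM in the controls and 1676 to 1864 in the mutants, while their mean log2 CPM overlapped, at 5.21, 4.91 and 4.92 in the controls and 5.12, 5.80 and 5.54 in the mutants. With this mean log2 CPM as a covariate the log2 fold change of Klf2 was 0.19, that of Klf4 0.10 and that of Foxc2 -0.62.

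Of 12 cardiac muscle markers 10 were higher in the mutants (median 0.24), which turned to 1 of 12 (median -0.14) without control replicate 2 and to 6 of 12 without mutant replicate 1. Their summed level was 14070.5 to 44689.6 CPM in the controls and 22950.5 to 46954 in the mutants. Cardiac markers were thus abundant in every library and highest in mutant replicate 1. With the cardiac score as a covariate the log2 fold change was 0.34 for Klf2 and -0.50 for Foxc2. Smaller lists were 8 adipocyte markers (0 higher, 8 lower, median -0.37, and 5 higher with a median of 0.22 without control replicate 2), 5 mast cell markers tested (4 higher, 1 lower, median 0.75, and 0.50 without control replicate 3), and 6 red cell and platelet markers tested (5 higher, 1 lower, median 0.45, and 3 higher with a median of -0.08 without mutant replicate 2). The 1 lower gene of the last list, the hemoglobin gene Hba-a1 (named after its values were seen), is uncertain, because it had 0 counts in control replicate 3 and mutant replicate 3, where its near-identical copy Hba-a2 had 124177 and 113713 counts against 0 or 1 elsewhere. The part of these smaller lists in the values of the 10 regulators was not tested.

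Klf4 and Klf2 are also early response genes in many cells, and 17 immediate early genes were read beside them. Of these 15 were higher in the mutants (median 0.18, and 10 of 17 with a median of 0.10 without control replicate 3), 2 of them above every control, beside 4.04% of all genes tested, and their mean log2 CPM was 5.70, 5.65 and 5.38 in the controls and 5.83, 5.77 and 5.68 in the mutants. The nuclear receptor Nr4a1 was at 44.4, 42.7 and 42.4 CPM in the controls and at 54.9, 47.5 and 63.8 CPM in the mutants, with a log2 fold change of 0.36, while Fos (0.50, and 0.27 without mutant replicate 1) and Atf3 (0.25, and 0.16 without control replicate 1) overlapped between groups. With the immediate early score as a covariate the log2 fold change of Klf2 was 0.41, that of Klf4 0.41 and that of Foxc2 -0.57.

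**Figure D4:**
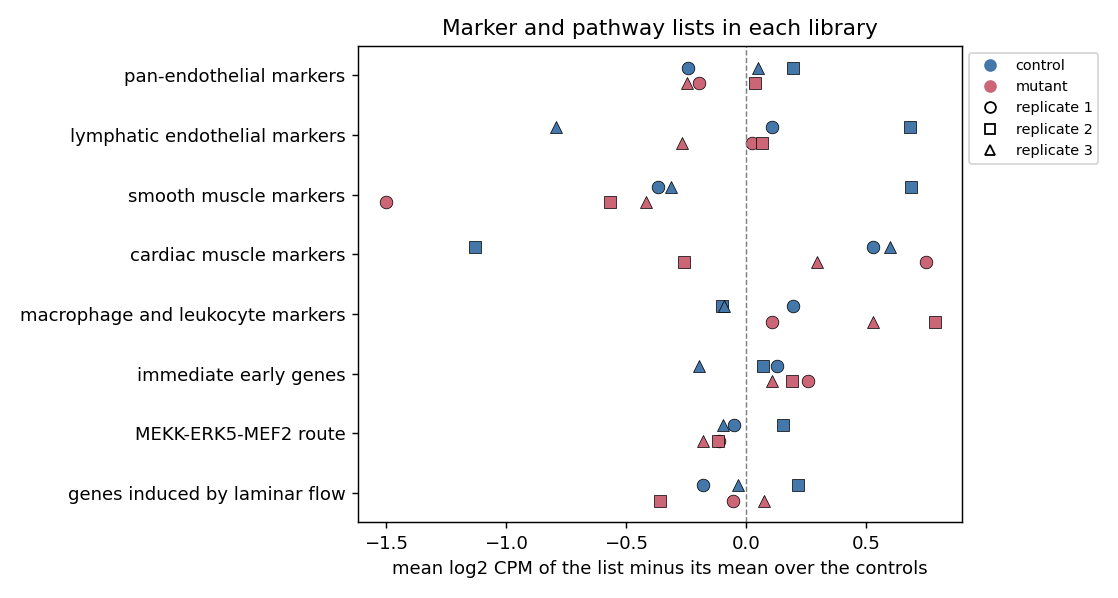
Mean log2 CPM of 8 lists of marker and pathway genes in each library, minus the mean of the list over the 3 controls. Points are libraries. For smooth muscle markers and the MEKK-ERK5-MEF2 list all mutants lie below all controls, immediate early genes and macrophage markers lean higher with overlap, and control replicate 2 stands apart for cardiac and smooth muscle.

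The genes around the 10 regulators were read from the same fit, by role. Of the 208 genes tested in these and the marker lists, each counted once, none had an adjusted p under 0.05 in edgeR and 27 had an unadjusted p under 0.05 (12.98%, against 3.45% of all genes tested). The lists were chosen with earlier results of these data known and include markers of other cell types. The higher share is therefore not a test of the genes around the regulators. DESeq2 called 1 of the 208 after adjustment, the macrophage lysozyme Lyz2, which is named for that reason, at 797, 726 and 748 CPM in the controls and 994, 1081 and 1059 CPM in the mutants. Among 22 flow sensors and junction genes, which share 6 genes with the endothelial markers, 11 were higher and 11 lower in the mutants (median -0.01, and 4 to 14 higher with 1 library left out). The VEGF receptor Flt4, which acts with junction proteins in shear sensing and marks lymphatic endothelium, was at 129, 195 and 145 CPM in the controls and at 99.2, 130 and 74.7 CPM in the mutants, with a log2 fold change of -0.63 (SE 0.24, unadjusted p = 0.0334). Kdr (-0.30) and the integrin subunit Itga5 (-0.29) came next by p, and were -0.18 and -0.11 without control replicate 2.

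In the MEKK-ERK5-MEF2 route, which lies between shear and Klf2, 2 of 10 genes were higher and 8 lower in the mutants (median -0.15, and -0.07 without control replicate 2). The transcription factor Mef2c was at 81.0, 101 and 79.8 CPM in the controls and at 71.1, 68.5 and 71.0 CPM in the mutants. Every mutant was below every control for 2 of the 10 genes, beside 4.83% of all genes tested. These were Mef2c (log2 fold change -0.32, unadjusted p = 0.0303) and the kinase Map3k3 (-0.18). Mapk7, which encodes ERK5 itself, was at -0.50 with overlapping groups. Without control replicate 2 the log2 fold changes were -0.19 for Mef2c, -0.09 for Map3k3 and -0.26 for Mapk7. Averaged over its 10 genes, log2 CPM stood at 5.18, 5.39 and 5.14 in the controls and 5.12, 5.12 and 5.06 in the mutants. The difference of the group means was -0.14, beside -0.13 for the pan-endothelial markers.

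Of 17 genes induced by laminar flow, 9 were higher and 8 lower (median 0.04, and -0.11 to 0.15 with 1 library left out). The heme oxygenase Hmox1 was above every control in every mutant, at 13.02, 15.7 and 19.5 CPM in the controls and 20.4, 23.1 and 22.5 CPM in the mutants, with a log2 fold change of 0.45. Wnt9b, a flow-induced ligand of valve endothelium that lies downstream of Klf2, was named after its values were seen. It was at 134, 142 and 137 CPM in the controls and at 155, 304 and 163 CPM in the mutants, with every mutant higher and mutant replicate 2 far above the rest (log2 fold change 0.59, unadjusted p = 0.0578, and 0.21 without that library). Adm, the vasodilator peptide adrenomedullin, was also named after its values were seen, at 29.4, 39.3 and 27.0 CPM in the controls and 26.5, 22.3 and 23.5 CPM in the mutants, every mutant lower (-0.41, unadjusted p = 0.045, and -0.22 without control replicate 2). The inhibitory SMAD Smad6, which BMP signaling also induces, was at 0.42 with overlapping groups. The connexin Gja4 was below every control in every mutant, at 114, 139 and 126 CPM in the controls and 108, 103 and 80.6 CPM in the mutants (-0.38).

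Of 14 genes induced by disturbed flow, 7 were higher and 7 lower (median -0.07, and -0.18 to 0.08 with 1 library left out). The leukocyte adhesion molecule Sele was at 18.9, 14.5 and 12.7 CPM in the controls and at 32.2, 32.7 and 21.2 CPM in the mutants. It was above every control in every mutant, with a log2 fold change of 0.90 (SE 0.22, unadjusted p = 0.00489). The chemokine Ccl2 was at 1.16 and the vessel destabilizing ligand Angpt2 at -0.69 (-0.33 without control replicate 2), both with overlapping groups.

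Partners of the effectors were mixed. Among 17 nitric oxide synthase and caveola partners tested, 8 were higher and 9 lower (median -0.05, and -0.12 to -0.01 with 1 library left out). Gch1, which makes the cofactor of nitric oxide synthase, was at 18.2, 14.7 and 18.6 CPM in the controls and at 23.7, 25.4 and 21.9 CPM in the mutants, above every control, with a log2 fold change of 0.46 (SE 0.14, unadjusted p = 0.0121). Cavin1, the adaptor that builds caveolae with Cav1, was at -0.37 and the guanylate cyclase subunit Gucy1a1, a receptor for nitric oxide in smooth muscle, at -0.60. Both overlapped, and were -0.17 and -0.23 without control replicate 2.

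The 5 endothelin system genes tested (3 higher, 2 lower, median 0.16, and -0.01 without control replicate 2) had overlapping groups throughout. The receptor Ednra was at a log2 fold change of 0.40 (0.13 without mutant replicate 1, 0.62 without mutant replicate 2). Of 8 anticoagulant genes tested, 6 were higher and 2 lower (median 0.09, and 0.03 without mutant replicate 2). Procr, the endothelial protein C receptor that works beside Thbd, was at 84.6, 95.6 and 130.5 CPM in the controls and at 76.0, 79.7 and 40.8 CPM in the mutants. It was below every control in every mutant (log2 fold change -0.66, SE 0.28, and -0.41 without mutant replicate 3), whereas Thbd itself overlapped.

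Of 16 partners of the valve and lymphatic factors, 5 were higher and 11 lower (median -0.08, against -0.12 for the pan-endothelial markers), and 4 were below every control in every mutant, beside 4.83% of all genes tested. Their mean log2 CPM overlapped between groups, and the split ranged from 3 higher and 13 lower without mutant replicate 2 (median -0.17) to 8 higher and 8 lower without mutant replicate 3 (median 0.03). Its close relative Foxc1 was at 146, 203 and 155 CPM in the controls and at 112, 142 and 128 CPM in the mutants (log2 fold change -0.40, SE 0.16, and -0.24 without control replicate 2). The ratio of Foxc2 to Foxc1 per kb overlapped between groups. Itga9, an integrin subunit needed for lymphatic valve leaflets, was at 265, 328 and 248 CPM in the controls and at 212, 247 and 177 CPM in the mutants (-0.40), and Reln, a matrix protein of lymphatic endothelium, at 10.1, 15.2 and 10.6 CPM against 8.59, 5.46 and 7.44 (-0.74).

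Of 8 lymphatic endothelial markers, of which Reln is also in the list above and Flt4 among the sensors, 2 were higher and 6 lower (median -0.40, and -0.07 without control replicate 2). The lymphatic matrix protein Mmrn1 was at 143, 307 and 164 CPM in the controls and at 85.0, 128 and 61.5 CPM in the mutants (log2 fold change -1.16, SE 0.37, unadjusted p = 0.0155, and -0.74 without control replicate 2, the highest). The summed level of the list was 428, 787 and 447 CPM in the controls and 352, 418 and 313 CPM in the mutants, and no marker of it was at 0 in all libraries. The mean log2 CPM over the 8 markers, which weighs each gene equally, overlapped, at 4.54, 5.12 and 3.64 in the controls and 4.46, 4.50 and 4.17 in the mutants. The overlap came from the lymphatic chemokine gene Ccl21a, which had 1 count in control replicate 3 against 343 to 1193 in the other libraries. Without it, an alternative chosen after these values were seen, the mean was 4.74, 5.36 and 4.72 in the controls and 4.45, 4.70 and 4.24 in the mutants, with every mutant below every control. For Prox1, which defines the same cells, the mutants held the highest and the lowest library.

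Acvr1, the gene of the transgene, was at 49.1, 60.5 and 67.4 CPM in the controls and at 56.5, 57.9 and 49.9 CPM in the mutants (log2 fold change -0.11, SE 0.14, and -0.22 to -0.0039 with 1 library left out). The counts therefore do not show the transgene, and they cannot check the genotype labels. Nfatc1, whose locus carries the Cre, was at 135, 161 and 116 CPM in the controls and at 176, 173 and 133 CPM in the mutants (0.23, SE 0.17, and 0.11 to 0.36 with 1 library left out), with overlapping groups.

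Across the 6 libraries, the 45 pairs among the 10 regulators were compared on the log2 CPM scale, with exact permutation tests and adjustment over the 45. No pair had an adjusted p under 0.05. The closest pattern was that of Thbd and Piezo1 (Pearson r = 0.85, exact permutation p = 0.0222, adjusted p = 0.536, and Spearman rho = 0.89, exact permutation p = 0.0333, adjusted p = 0.75), with r = 0.93 without the 2 libraries farthest from the median. The nearest other regulator by r was Nos3 for Klf4 (0.77, and 0.97 without the 2 farthest libraries), Thbd for Nos3 (0.81 and 0.63) and Thbd for Gata2 (0.80 and 0.74). It was Klf4 for Klf2 (0.75 and 0.24), Cav1 for Edn1 (0.77 and 0.43) and Gata2 for Foxc2 (0.79 and -0.94), and these last relations rest on the libraries left out. Prox1 had its largest positive r with Gata2 (0.39), while its pattern was opposite to that of Klf4 (Pearson r = -0.73, exact permutation p = 0.0958, adjusted p = 0.539, and Spearman rho = -0.89, exact permutation p = 0.0333, adjusted p = 0.75), with r = -0.73 without the 2 farthest libraries. Of the 30 relations of the 10 genes with the endothelial, immediate early and cardiac scores, none had an adjusted p under 0.05, and the smallest was 0.409 for r.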

How the data were processed

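Aortic valve RNA was extracted with the RNeasy kit, made into libraries with the Illumina TruSeq RNA kit and sequenced on a HiSeq4000. The authors aligned reads to mm10 and assigned fragments to genes with Cuffdiff. The submitters' processing notes name TopHat2 2.0.13, Bowtie2 2.2.1, Cuffdiff 2.1.1, Cufflinks and FastQC. The deposited values are estimated counts per gene, not scaled for library size. Between 1.66% and 1.87% of them per library were not whole and were rounded. Library totals were 46180666 to 55728854 in the controls and 32218343 to 53129459 in the mutants.

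Tests were run in edgeR 4.0.16 under R 4.3.3 (TMM, quasi-likelihood F test, at least 10 counts in at least 3 libraries, Benjamini-Hochberg over 15354 genes). Log2 CPM used a prior count of 2. Lengths and positions came from the GENCODE annotation of GRCm38, which matched 98.0% of gene symbols or their RefSeq synonyms. Exact permutation tests used SciPy 1.17.1. Marker scores are the mean log2 CPM of a list. All 10 regulators, Acvr1, Nfatc1 and the 3 genes of smallest p in each list could be named, and any other gene is named as chosen after its values were seen. The members and lists were chosen with earlier results of these data known. In simulated data of this size (15234 genes), edgeR recovered 28 of 99 genes changed by a log2 fold change of 1 and 96 of 99 changed by 2. How far these rates hold for the deposited libraries was not tested.

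Alternatives were DESeq2 1.42.0, limma-voom (limma 3.58.1), upper-quartile scaling, no count filter, a mean count of at least 100, the replicate number as a block, marker scores as covariates (those of smooth muscle and macrophages added after seeing the data), and leaving out each library. The authors' Cuffdiff test needs aligned reads and was not run.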

Additional observations from a re-analysis of the deposited data

How the results depend on the processing

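Over 17 alternatives, the direction was kept in all 17 for Klf2, Klf4, Foxc2 and Piezo1, in 16 for Gata2, 14 each for Nos3, Edn1 and Cav1, 10 for Thbd and 8 for Prox1, and no regulator passed an adjusted p of 0.05 in any. DESeq2 called 26 genes over the whole table where edgeR and the other alternatives called 0. Unadjusted calls were 529 in edgeR, 683 in DESeq2, 515 with upper-quartile scaling, 625 without a count filter, 416 at a mean count of at least 100, and 435 to 633 with 1 library left out. Covariates moved them to 421 (endothelial), 699 (cardiac), 423 (immediate early), 991 (smooth muscle) and 390 (macrophage). The replicate numbers do not pair the libraries (same-number correlations 0.29, 0.08 and 0.03), and as a replicate block they gave 814 unadjusted calls and 0 adjusted ones.

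Log2 fold changes that changed sign were as follows. Under limma-voom Thbd was -0.018 and Prox1 -0.030, and under the replicate block Thbd was -0.0087, Prox1 -0.056 and the brown fat gene Ucp1 1.31. With the endothelial score Prox1 was -0.049, Cav1 0.018 and Ryr2 -0.012, and with the cardiac score Prox1 was -0.058. With the immediate early score Thbd was -0.098, Prox1 -0.32, Nppa 0.37, Acvr1 0.044 and Nfatc1 -0.018. With the smooth muscle score Edn1 was 0.011, Prox1 -0.54, Cav1 0.23, Gucy1a1 0.067, Cavin1 0.0065, Ednra -0.11, Bgn 0.11, Ryr2 -0.37, Tnni3 -0.37 and Fabp4 0.021. With the macrophage score Nos3 was -0.17, Thbd -0.095, Edn1 0.0052, Acvr1 0.0067, Vcan -0.063, Nppa 0.17, Gp9 -1.44, Ppbp -2.01 and Itga2b -0.93. The cause was not tested.

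With 1 library left out, the log2 fold change ranged from 0.22 to 0.38 for Klf2, 0.11 to 0.42 for Klf4, -0.12 to 0.24 for Nos3, -0.17 to 0.14 for Thbd, -1.01 to 1.2e-05 for Edn1, -0.35 to 0.27 for Prox1, -0.67 to -0.37 for Foxc2, -0.26 to 0.031 for Gata2, -0.21 to -0.0066 for Piezo1 and -0.40 to 0.030 for Cav1. Of the list genes, Nppa ranged from -1.29 to 0.065, Ryr2 from -0.057 to 0.60, Tnni3 from -0.048 to 0.59 and Ucp1 from -4.33 to 4.26. The limits of the design are 3 libraries a group, totals that reach down to 32218343 in the mutants, and a smallest permutation p of 0.1.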
